A study of Mus musculus with 8 samples.

Results

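The COPI coat genes Copa, Copb1, Copb2, Copg1, Copg2, Arcn1, Cope, Copz1 and Copz2 were followed in mouse pituitary neuro-intermediate lobes, as 9 of the 48526 genes of the deposited count table. Each symbol named 1 row of the FPKM table and was joined by its Ensembl identifier to the raw counts, and all 9 passed the filter on low counts that left 15580 genes. They were chosen by their counts in the ACreb3l2 and WT libraries, because coat genes were lower in ACreb3l2 lobes than in WT lobes, so that contrast is described below without a test of these genes. Comparisons that reuse the WT or the ACreb3l2 libraries are not independent of the choice, and their values for the coat genes are given as a description, without p-values of single genes. ACreb3l2/AXBP1 against AXBP1 compares other libraries, although its error is estimated over all 8 libraries and earlier results of these data were known when the genes were chosen.

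RNA was sequenced from 8 libraries, each made from 1 pool of 5 lobes of C57B6 mice. The mice were males, 3 months old. Sex and age are taken from the methods text, not from the labels. The groups hold 2 libraries each: WT mice without a transgene, ACreb3l2 mice, AXBP1 mice, and ACreb3l2/AXBP1 mice that carry both transgenes. Each transgene encodes an acidic dominant negative protein, which dimerizes with the bZIP factor it is named for, Creb3l2 or XBP1, so that the pair cannot bind DNA, under the rat POMC promoter, so it is driven in POMC cells and not in the neural-lobe cells that the pools also hold. More than one founder line was kept per transgene, and the labels do not name the line used.

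COPI is a protein coat that forms on Golgi membranes and buds vesicles which carry escaped endoplasmic reticulum (ER) proteins, cargo receptors and Golgi enzymes backwards, from the Golgi to the ER and between Golgi stacks. Its subunits alpha (Copa), beta' (Copb2) and epsilon (Cope) form the outer part of the coat, and beta (Copb1), gamma (Copg1 or Copg2), delta (Arcn1) and zeta (Copz1 or Copz2) form the inner part, which resembles the clathrin adaptors. The coat is loaded as 1 preformed unit when the small GTPase ARF1 is activated. Melanotropes, the POMC-producing cells of the intermediate lobe, secrete peptide hormone at a high rate and so send much protein through the ER and Golgi.

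Total counts per library ran from 28256086 to 37988912, with TMM factors of 0.913 to 1.10. Values below are TMM-scaled CPM, counts relative to the library size, unless FPKM is named. A gene is said to be called where edgeR's adjusted p was under 0.05, and standard errors (SE) of log2 changes are from the same fit over all 8 libraries. Labels do not say whether the pools of a group share animals or litters, so the p-values measure the spread between these pools. Creb3l2 itself lay between 825 and 884 CPM in the WT and ACreb3l2 libraries, at 580 and 704 CPM with AXBP1 and at 653 and 433 CPM with both transgenes. Xbp1 lay at 366 and 414 CPM in WT, at 282 and 284 CPM with ACreb3l2, at 384 and 427 CPM with AXBP1 and at 543 and 396 CPM with both. By the study's methods each transgene holds coding sequence of Creb3l2 or XBP1 from the leucine zipper on, so its reads could be counted on these genes. Creb3l2 was not higher in the groups labelled with ACreb3l2, with log2 changes of -0.08 (SE 0.175) in ACreb3l2 against WT and -0.24 (edgeR adjusted p = 0.651, SE 0.175) in ACreb3l2/AXBP1 against AXBP1, and it was called lower in ACreb3l2/AXBP1 against WT (log2 change -0.69, edgeR adjusted p = 0.0428, SE 0.176). Xbp1 stood at 0.06 (edgeR adjusted p = 0.900, SE 0.139) in AXBP1 and 0.27 (edgeR adjusted p = 0.227, SE 0.139) in ACreb3l2/AXBP1 against WT. Neither gene was thus called higher in the groups labelled with its transgene. The study kept lines in which its own RT-qPCR found several times more transgene than endogenous RNA, a measure not among the data used here. Every direction below is one between libraries labelled so.

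All 9 genes are annotated as protein coding by GENCODE M21 on mm10, under the same identifiers as in the files. Copa (ENSMUSG00000026553) lies at chromosome 1, 172082529 to 172122330, and Copb1 (ENSMUSG00000030754) at chromosome 7, 114215559 to 114254711. Copb2 (ENSMUSG00000032458) lies at chromosome 9, 98563721 to 98588382, and Arcn1 (ENSMUSG00000032096) on the same chromosome at 44741564 to 44767845. Copg1 (ENSMUSG00000030058) lies at chromosome 6, 87887814 to 87913595, and Copg2 (ENSMUSG00000025607) on that chromosome at 30747554 to 30896794. Cope (ENSMUSG00000055681) lies at chromosome 8, 70302518 to 70312993. Copz1 (ENSMUSG00000060992) lies at chromosome 15, 103272714 to 103299868, and Copz2 (ENSMUSG00000018672) at chromosome 11, 96849870 to 96861203. The genes are thus spread over 7 chromosomes, and each gamma and zeta gene has its paralogue at another locus. Copz1 and Copz2 each host a microRNA gene outside their exons, Mir148b and Mir152.

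bZIP factors of the CREB and XBP1 kind bind DNA around an ACGT core, and forms such as TGACGTG are known from genes of the unfolded protein response. RefSeq promoter windows (GRCm38.p6, 250 bases before to 50 after the start) were at hand for 8 of the 9 genes, all but Arcn1. On either strand, ACGT occurred in the windows of Copg1, Copb1, Copb2, Cope, Copz1 and Copz2, and in 30.9% of all 32851 windows. TGACGTG occurred in Copb1 and Copb2, and in 2.01% of all windows. GACGTGG, which overlaps TGACGTG in 6 letters and was chosen after these sequences had been seen, occurred in 5 of the 8 windows. It occurred in 2.42% of all windows, but the 5 follow in part from the choice and are not read against that share. CCAAT followed after 9 bases by CCACG, the ER stress element, occurred in none of the 8 and in 0.119% of all. No ACGT was found in the Copa and Copg2 windows. A match is a description of letters and not of binding. The 30-base stretches that hold GACGTGG are shown because 5 of the coat genes carry them, with the motif, or its complement CCACGTC, in capitals, on the strand of the gene and with the position of the first capital relative to the start.
Copb1 (chr7:114254690-114254719, minus strand, -28): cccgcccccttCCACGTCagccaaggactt
Copb2 (chr9:98563713-98563742, plus strand, -7): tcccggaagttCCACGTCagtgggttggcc
Copg1 (chr6:87887931-87887960, plus strand, 3): gtgctcagggcGACGTGGcgggcgggagta
Copz1 (chr15:103272887-103272916, plus strand, 11): cttgtgcgactCCACGTCggcagcagctac
Copz2 (chr11:96849744-96849773, plus strand, -121): ggttctgcaacGACGTGGgggtcgggcaga
Copz2 (chr11:96849896-96849925, plus strand, 41): tgcagcggccggaggcctggCCACGTCcgc

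In WT lobes all COPI coat genes were expressed at high levels per length. The deposited FPKM of Copa was 186 and 203, that of Copb2 170 and 183, and that of Copg1 119 and 132. Arcn1 followed with 101 and 99.1 FPKM, Copz1 with 85.1 and 96.5, and Copz2 with 62.3 and 79.2. The lowest were Cope with 62.5 and 62.0 FPKM, Copb1 with 54.4 and 57.5, and Copg2 with 38.1 and 37.1. In this order Copz2 and Cope overlapped, and the gaps between Copa and Copb2, Arcn1 and Copz1, and Copz1 and Copz2 were smaller than the difference between the 2 libraries of at least 1 gene of the pair. Among the tested genes, WT means placed Copa at the 98.3 percentile of FPKM and Copg2 at the 87.0 percentile. The second zeta gene took 43.7% ± 1.99 (SD, n = 2) of the FPKM of Copz1 and Copz2 together, and the second gamma gene took 23.0% ± 1.67 (SD, n = 2) of that of Copg1 and Copg2.

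The comparison of ACreb3l2/AXBP1 with AXBP1 asks what blocking Creb3l2 changes in lobes in which XBP1 is blocked too. Copb2, Copg1 and Copz2 were lower in ACreb3l2/AXBP1 and passed the test, and the other coat genes except Copg2 had lower values without passing the test. The 3 calls, all lower, stand beside 0.616% of all tested genes called lower (0.623% called in either direction), and 8 of the 9 genes had an unadjusted p under 0.05, beside 11.1% of all genes. In both ACreb3l2/AXBP1 libraries 8 of the 9 genes lay below both AXBP1 libraries, beside 24% of all genes that did so, and Copg2 lay above. The median log2 change of the 9 genes was -0.56, and that of all tested genes was within 0.01 of 0.

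Among the outer subunits, Copb2, which encodes beta', had 564 and 549 CPM in the AXBP1 libraries and 379 and 312 in the ACreb3l2/AXBP1 libraries. Its log2 change was -0.69 (edgeR adjusted p = 0.0258, SE 0.111). Copa, the alpha subunit that with beta' reads retrieval signals on cargo tails, had 941 and 890 CPM in AXBP1 and 677 and 563 in ACreb3l2/AXBP1. The groups did not overlap, and its log2 change of -0.56 missed the threshold (edgeR adjusted p = 0.0814, SE 0.120). Cope, the small epsilon subunit bound to alpha, had 72.5 and 70.7 CPM in AXBP1 and 55.8 and 41.6 in ACreb3l2/AXBP1. Its log2 change was -0.56 as well (edgeR adjusted p = 0.114, SE 0.129), and the 2 libraries of ACreb3l2/AXBP1 lay far apart.

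Among the inner subunits, Copg1 had 488 and 478 CPM in AXBP1 and 344 and 287 in ACreb3l2/AXBP1, a log2 change of -0.61 (edgeR adjusted p = 0.0443, SE 0.112). Copz2, the second zeta subunit, had 53.7 and 51.6 CPM in AXBP1 and 25.4 and 24.1 in ACreb3l2/AXBP1. The libraries of each group lay close together, and this was the largest change of any coat gene in this comparison, with a log2 change of -1.09 (edgeR adjusted p = 0.00657, SE 0.129). Copz1, which encodes the other zeta subunit, had 146 and 149 CPM in AXBP1 and 133 and 117 in ACreb3l2/AXBP1, a log2 change of -0.24 (edgeR adjusted p = 0.415, SE 0.0990). Copb1, the beta subunit, had 211 and 206 CPM in AXBP1 and 158 and 156 in ACreb3l2/AXBP1. Arcn1, the delta subunit, had 379 and 382 CPM in AXBP1 and 292 and 255 in ACreb3l2/AXBP1. Both missed the threshold, with log2 changes of -0.41 (edgeR adjusted p = 0.133, SE 0.101) and -0.47 (edgeR adjusted p = 0.0677, SE 0.0959). Copg2, the second gamma subunit, had 131 and 128 CPM in AXBP1 and 137 and 133 in ACreb3l2/AXBP1, and the 95% interval of its log2 change ran from -0.13 to 0.25 (edgeR adjusted p = 0.836).

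These calls rested on few libraries. With only the 4 libraries compared in the fit, Copb2 (edgeR adjusted p = 0.0399) and Copz2 (edgeR adjusted p = 0.00680) were called and Copg1 was not (edgeR adjusted p = 0.0515). In that fit 122 of 15580 genes were called in all. The ACreb3l2 libraries enter only through the error, and when either was left out, fewer coat genes and fewer genes in all were called. Without AXBP1 replicate 1, AXBP1 replicate 2 or ACreb3l2/AXBP1 replicate 2, 0 of the 9 genes were called, while the log2 change of Copz2 stayed between -1.13 and -1.05 whichever library was left out. DESeq2 called 7 genes lower, all but Copg2 and Copz1, beside 1.67% of all genes called lower by it, and limma on FPKM called 1 (Copz2) or, without a filter, 0.

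**Figure D1:**
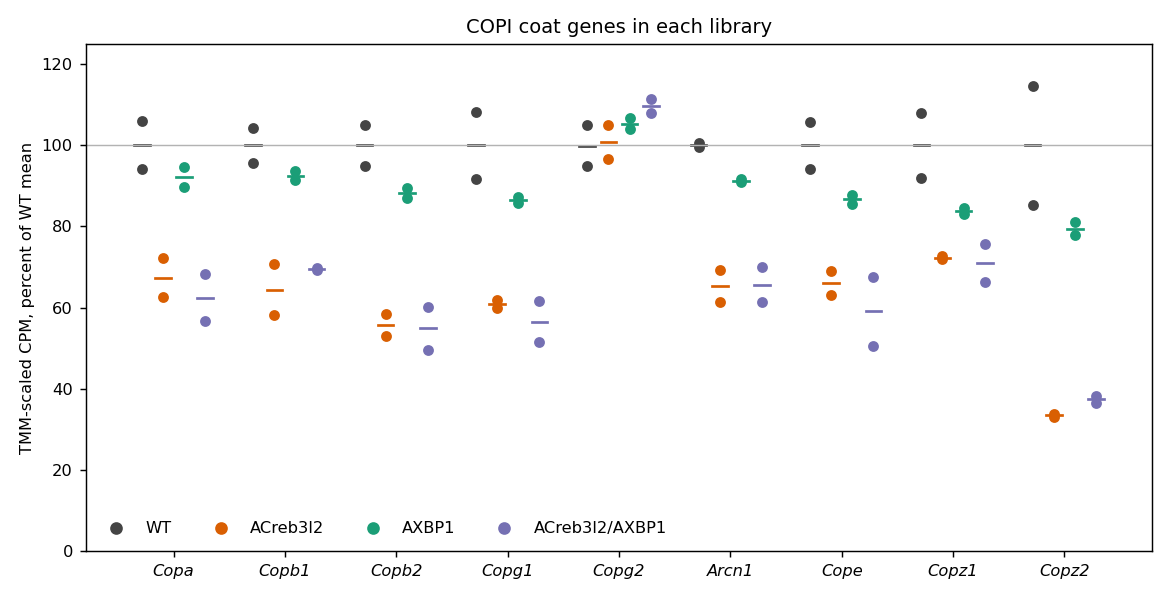
TMM-scaled CPM of each COPI coat gene as a percent of its WT mean, with 1 point per library and a short bar at the mean of the 2 libraries of each group. For every gene except Copg2, both ACreb3l2/AXBP1 libraries lay below both AXBP1 libraries, as they did for 24% of all genes. The ACreb3l2 libraries likewise lay below the WT libraries, beside 23.2% of all genes, but this follows in part from the choice of the genes. Copz2 reached the lowest group mean, 33.4% of WT in ACreb3l2.

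Against WT, the ACreb3l2/AXBP1 lobes had 8 of the 9 genes called lower, beside 6.99% of all tested genes called lower. The WT libraries here are those that helped to choose the genes, so the count does not stand as independent of the choice. With library size alone as the scaling, 7 coat genes were called lower, although the split over all genes turned from 1089 lower and 477 higher to 546 lower and 1104 higher. Copz2 had 56.6 and 75.9 CPM in WT and 25.4 and 24.1 CPM in ACreb3l2/AXBP1, a log2 change of -1.42 (SE 0.129). Copb2 had 598 and 662 CPM in WT, and its change of -0.87 (SE 0.111) was followed by that of Copg1, with 513 and 604 CPM in WT, of -0.82 (SE 0.112). Of the remaining outer subunits, Cope (77.8 and 87.3 CPM in WT) changed by -0.76 (SE 0.129) and Copa (934 and 1051 CPM in WT) by -0.68 (SE 0.120). Arcn1 (419 and 415 CPM in WT) changed by -0.61 (SE 0.0960), Copb1 (216 and 235 CPM in WT) by -0.52 (SE 0.101) and Copz1 (162 and 190 CPM in WT) by -0.49 (SE 0.0990). Copg2 had 129 and 117 CPM in WT, below both ACreb3l2/AXBP1 libraries, with a log2 change of 0.13 (SE 0.0842). The count of 8 dropped to 4 without WT replicate 2 and to 4 without ACreb3l2/AXBP1 replicate 2.

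The AXBP1 lobes carry only the dominant negative against XBP1, and their comparison with WT reuses the WT libraries. There 0 of the 9 genes were called by edgeR and by each alternative. edgeR called 0% of all tested genes in this comparison, and 79 genes were called by DESeq2. At an unadjusted p under 0.05 stood 2 coat genes and 9.97% of all genes. The lowest values were those of Copz2, with 53.7 and 51.6 CPM in AXBP1 against 56.6 and 75.9 in WT (log2 change -0.33, SE 0.125), and Copz1 (log2 change -0.26, SE 0.0989). All members except Copg2 had a lower mean in AXBP1, with log2 changes between -0.33 and -0.11, and for 7 of the 9 both AXBP1 libraries lay below both WT libraries, as they did for 23.8% of all genes. The log2 change of Copg2 was 0.08 on counts and -0.16 on FPKM (pseudocount 0.1), where the median of all genes was itself at -0.15.

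In the ACreb3l2 lobes, the libraries that chose the genes, Copz2 had 22.4 and 21.9 CPM, at 33.4% of the WT mean, and a log2 change against WT of -1.58 (SE 0.130). Copb2 had 333 and 369 CPM (log2 change -0.84, SE 0.111) and Copg1 346 and 334 (log2 change -0.72, SE 0.112). Copb1 with 131 and 159 CPM, Arcn1 with 256 and 289, Cope with 56.9 and 52.2 and Copa with 622 and 716 had log2 changes from -0.64 to -0.57. The smallest reduction was that of Copz1, with 128 and 126 CPM and a log2 change of -0.47 (SE 0.0991). Copg2 had 119 and 129 CPM, which overlapped with the WT libraries, and a log2 change of 0.01 (SE 0.0843). Over all tested genes 2.5% were called lower in this contrast, and no count of coat genes is read against that share, since it would follow from how they were picked.

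ACreb3l2/AXBP1 was compared with ACreb3l2 to ask what the second transgene adds, with the ACreb3l2 libraries that helped to choose the genes. Low values there raise this difference, so it is described without a test of the coat genes. Their log2 changes ran from -0.16 (SE 0.129) for Cope to 0.16 (SE 0.130) for Copz2, with 5 of the 9 below 0. Over all tested genes 0% were called by edgeR, 41 genes were called by DESeq2, and 7.14% had an unadjusted p under 0.05. The interaction, the change in ACreb3l2/AXBP1 beyond the sum of the changes of the single transgenic groups, subtracts the contrast that chose the genes, so low values in ACreb3l2 raise it. It was above 0 for 9 of the 9 coat genes, with a median log2 value of 0.14 and the highest value for Copz2 (0.49, SE 0.181), and no test of it is drawn for them. Over all genes 0% were called for the interaction, and 2.48% had an unadjusted p under 0.05, and DESeq2 called 4 genes. ACreb3l2 against AXBP1 uses the ACreb3l2 libraries as well. All 9 coat genes were lower there, with log2 changes from -1.25 (SE 0.130) for Copz2 and -0.66 (SE 0.111) for Copb2 to -0.06 (SE 0.0843) for Copg2, and 0.719% of all genes were called.

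**Figure D2:**
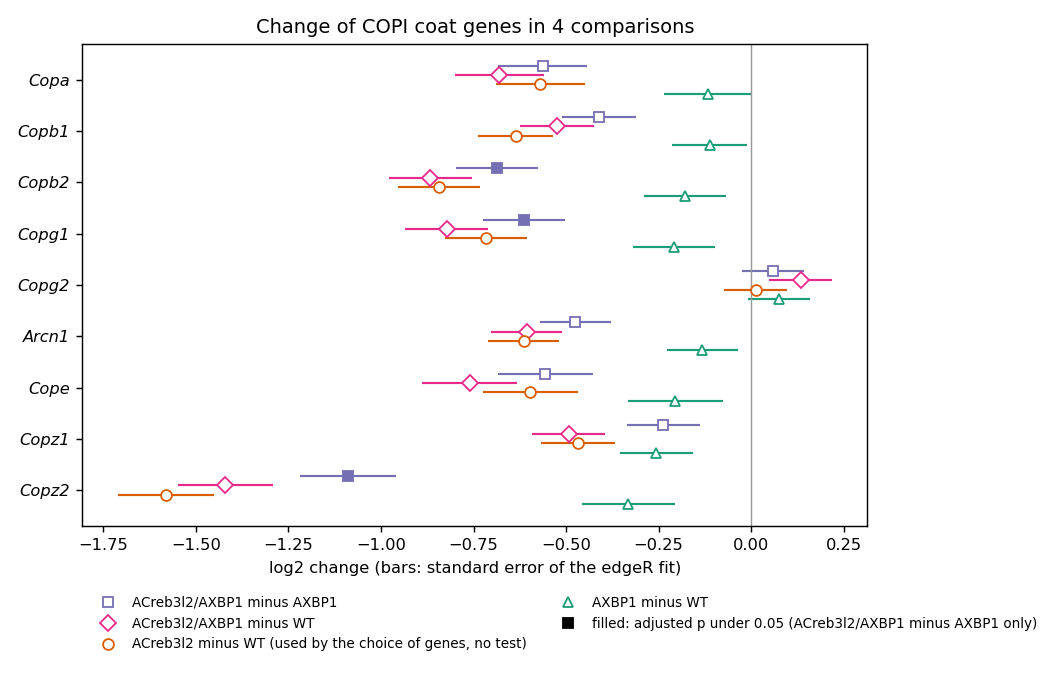
Log2 change of each COPI coat gene (horizontal axis) in 4 comparisons, with bars for the standard error of the edgeR fit. Symbols are filled for adjusted p under 0.05 in ACreb3l2/AXBP1 minus AXBP1 only, since the ACreb3l2 minus WT values chose the genes and the other comparisons reuse the WT libraries. Copz2 lay farthest to the left, from -1.58 to -1.09 in the 3 comparisons with ACreb3l2 in the first group, and Copg2 stayed between 0.01 and 0.13 in all 4 (on FPKM, -0.16 in AXBP1 minus WT).

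The summed CPM of the 9 genes was 3103 and 3436 in WT, 2985 and 2903 in AXBP1, 2013 and 2196 in ACreb3l2, and 2200 and 1889 in ACreb3l2/AXBP1. As a share of the summed FPKM of the 9 genes, Copa made up 21.3% ± 0.101 (SD, n = 2) in WT and 21.1% ± 0.451 in ACreb3l2/AXBP1, and Cope 6.82% ± 0.412 and 6.52% ± 0.736. Copb2 went from 19.3% ± 0.0647 in WT and 19.2% ± 0.0464 in AXBP1 to 17.2% ± 0.413 in ACreb3l2 and 17.1% ± 0.542 in ACreb3l2/AXBP1. Larger relative to their size were the differences of the second zeta and gamma genes. Copz2 made up 7.71% ± 0.884 in WT, 4.18% ± 0.123 in ACreb3l2 and 4.75% ± 0.232 in ACreb3l2/AXBP1, and Copg2 4.12% ± 0.304, 6.63% ± 0.431 and 7.55% ± 1.07. Copz1 had 9.93% ± 0.336 in WT, 11.6% ± 0.592 in ACreb3l2 and 11.5% ± 0.0704 in ACreb3l2/AXBP1. Shares within a library do not depend on its scaling.

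The share of the second gene of each paralogue pair was lower for zeta and higher for gamma with ACreb3l2. Copz2 made up 42.2% and 45.1% of the pair's FPKM in the WT libraries and 43.6% and 42.0% in the AXBP1 libraries. In the ACreb3l2 libraries its share was 26.3% and 26.9%, and in the ACreb3l2/AXBP1 libraries it had a mean of 29.3% ± 0.886 (SD, n = 2). Copg2 made up 24.2% and 21.9% of its pair in WT and 25.6% and 25.7% in AXBP1, against 30.8% and 35.2% in ACreb3l2 and 34.0% and 39.5% in ACreb3l2/AXBP1. The minor zeta gene thus took less of its pair, and the minor gamma gene more, in the ACreb3l2/AXBP1 libraries than in the AXBP1 libraries. The same held in ACreb3l2 against WT, but those libraries chose the genes, so that difference follows in part from the choice. With 2 libraries against 2, a two-sided exact permutation test cannot go below p = 0.333, so no p is given for these shares. Paralogues shared no 50-base stretch of exonic sequence.

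**Figure D3:**
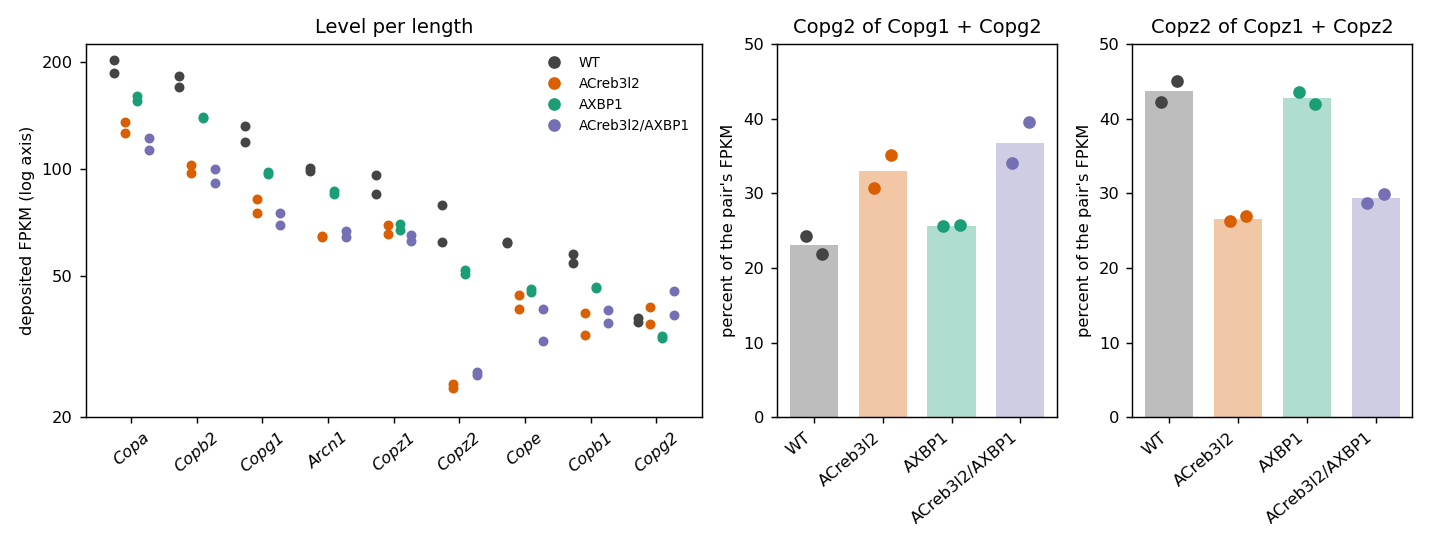
Left, deposited FPKM of each COPI coat gene in every library on a log axis, ordered by the WT mean. Middle and right, the share of Copg2 in the FPKM of Copg1 and Copg2 and that of Copz2 in the FPKM of Copz1 and Copz2, in percent, with bars at the group mean and 1 point per library. Copz2 took 43.7% of its pair on average in WT and 26.6% in ACreb3l2, while Copg2 took 23.0% and 33.0% of its pair. The WT and ACreb3l2 libraries are those that chose the genes.

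Copg2 shares 912 of its exonic bases, 17.8%, with Mest on the opposite strand, and Mest had between 1213 and 1492 CPM, far more than Copg2. The methods name a stranded library kit, but the sources do not state whether counting used strand, so counts of Copg2 may hold or lack reads of this overlap and are uncertain. Mest had 1460 and 1213 CPM in AXBP1 and 1337 and 1492 in ACreb3l2/AXBP1 (log2 change 0.08, edgeR adjusted p = 0.847, SE 0.126). The part of Mest reads in the values of Copg2 was not tested. Copa shares 195 exonic bases, 2.07%, with Ncstn on the opposite strand, which had 127 to 155 CPM in all libraries. Antisense genes cover 7.51% of the exonic bases of Copa (Gm37756) and 8.55% of those of Copg1 (Gm26636), and each had fewer than 8 counts per library on average. Arcn1 shares 2.72% of its 50-base stretches with the pseudogene Gm8752, which had less than 1 count per library. It also shares smaller parts with many other genes, some of them well expressed. Examples are Ankfy1 and Synrg, each with 0.517% of the stretches and means of 3962 and 4466 counts per library.

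Genes that act with the coat were taken from lists of the ARF cycle, cargo, tethering and other coats, chosen with earlier results of these data known. Of 10 genes that recruit or release COPI, 3 were called lower in ACreb3l2/AXBP1 against AXBP1 and 0 higher, with a median log2 change of -0.39. This count and those of the following lists stand beside the 0.616% of all genes called lower. Without AXBP1 replicate 1, AXBP1 replicate 2 or ACreb3l2/AXBP1 replicate 2, no gene of any of these lists was called, and 7, 7 and 11 genes were called in all. Arfgap1, a GTPase activator that sets ARF1 off and lets the coat fall away, had 128 and 124 CPM in AXBP1 and 71.6 and 59.2 in ACreb3l2/AXBP1 (log2 change -0.94, edgeR adjusted p = 0.00771, SE 0.118). Arfgap3, of the same function, changed by -0.74 (edgeR adjusted p = 0.0370, SE 0.128) and the GTPase Arf4 by -0.48 (edgeR adjusted p = 0.0327, SE 0.0808). Arfgap2, the remaining activator listed, stood at -0.03 (edgeR adjusted p = 0.925, SE 0.0935), and Arf1 at -0.30 (edgeR adjusted p = 0.214, SE 0.0879).

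Of 14 cargo proteins and cargo receptors, 2 were called lower and 0 higher (median log2 change -0.20). Kdelr2, a receptor that returns ER proteins ending in KDEL, had 269 and 265 CPM in AXBP1 and 155 and 132 in ACreb3l2/AXBP1 (log2 change -0.90, edgeR adjusted p = 0.00657, SE 0.108). Surf4, a cargo receptor that cycles between ER and Golgi, changed by -0.75 (edgeR adjusted p = 0.0306, SE 0.125). The p24 cargo proteins spread on both sides of 0, from -0.46 for Tmed3 to 0.09 for Tmed5, with none called. Of 9 genes of the tether and SNAREs that receive COPI vesicles at the ER, 1 was called lower, the SNARE Sec22b (log2 change -0.72, edgeR adjusted p = 0.0167, SE 0.106), and all 9 had lower values (median -0.25), as did 50.0% of all genes.

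The COPII coat, which carries cargo forwards out of the ER, had 5 of 11 genes called lower and 0 higher (median log2 change -0.43). These were Sec24d (log2 change -0.97, edgeR adjusted p = 0.00566, SE 0.112), Sec31a (-0.76, edgeR adjusted p = 0.0151, SE 0.109), Sec13 (-0.67, edgeR adjusted p = 0.0317, SE 0.112), Sec24a (-0.65, edgeR adjusted p = 0.0470, SE 0.120) and the GTPase Sar1a (-0.60, edgeR adjusted p = 0.0151, SE 0.0856). The clathrin genes and the adaptors AP-1, AP-2 and AP-3, whose subunits resemble the inner COPI coat, had 0 of 23 called by edgeR (4 at an unadjusted p under 0.05, beside 11.1% of all genes) and 0 by DESeq2 and a median log2 change of -0.06. Against WT, ACreb3l2/AXBP1 had 6 of 10 recruitment genes, 8 of 14 cargo genes, 7 of 9 tether and SNARE genes and 8 of 11 COPII genes called lower, none higher, beside 6.99% of all genes called lower. With 1 library left out these counts ran from 3 to 7, 2 to 9, 1 to 7 and 5 to 9, and all calls were 218 without ACreb3l2/AXBP1 replicate 2, 355 without WT replicate 2 and up to 2084 otherwise. The clathrin and adaptor list had 4 called lower there, Ap3b2 (-0.64, edgeR adjusted p = 0.0135, SE 0.122), Cltb, Ap3m1 and Ap2m1, and 1 higher, Ap3m2 (0.37, edgeR adjusted p = 0.0367, SE 0.0929), with a median of -0.21, and 0 to 8 were called lower with 1 library left out. In AXBP1 against WT, 0 genes of these lists were called by edgeR or DESeq2, and 2 to 5 genes of each list had an unadjusted p under 0.05, beside 9.97% of all genes.

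**Figure D4:**
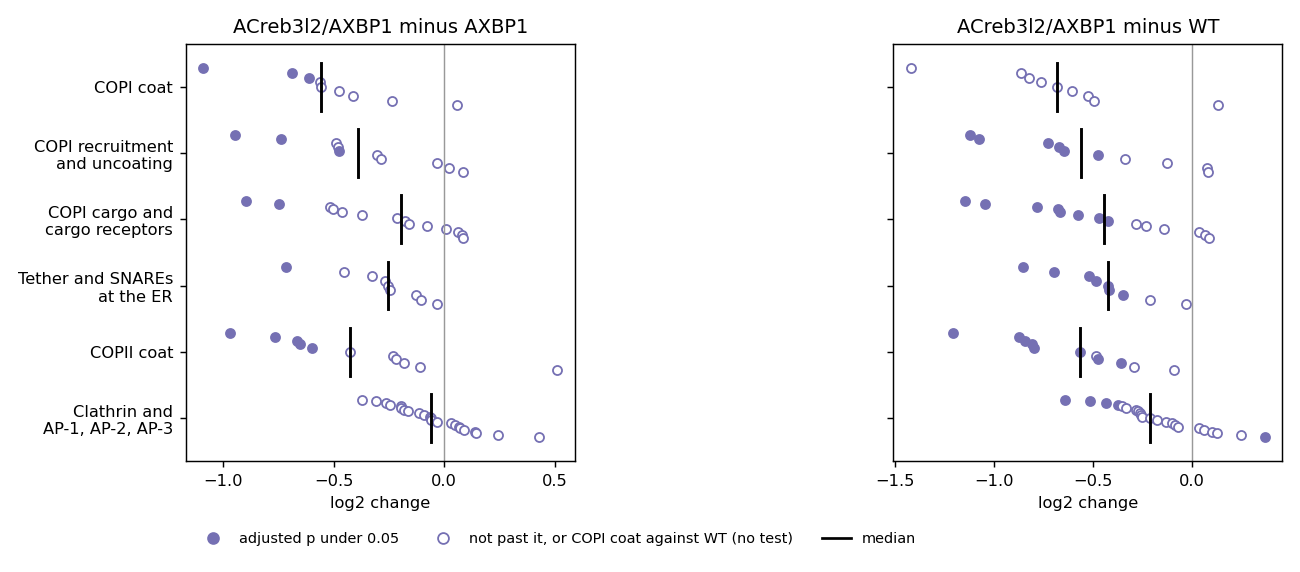
Log2 changes of the COPI coat genes and 5 lists of related genes in ACreb3l2/AXBP1 against AXBP1 (left) and against WT (right), with 1 point per gene, filled where the adjusted p was under 0.05 (COPI coat genes on the right are drawn unfilled, since WT helped to choose them), and a vertical bar at the list's median. The median of the COPI coat was -0.56 on the left and -0.68 on the right, and that of the clathrin and adaptor genes -0.06 and -0.21.

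Over the 8 libraries, the median profile of the 8 coat genes called in ACreb3l2/AXBP1 against WT, as log2 CPM relative to the WT mean, was -0.17 and -0.21 in AXBP1, -0.56 and -0.89 in ACreb3l2/AXBP1, and -0.70 and -0.59 in ACreb3l2. Among the 8 genes that make up this median, the root mean square difference from it ran from 0.06 for Copa to 0.58 for Copz2. Copg2, which was not among them, stood at 0.57. These distances are set in part by how the profile was built and carry no test. Of 14018 other protein-coding genes tested, the most alike by this measure were Ttc37 (0.05), Commd5 (0.05), Napb (0.06), Rint1 (0.06) and Gbf1 (0.06), followed by Tmed3, Pick1, Fam195b, Sec16a and Tssc4. Among these, Gbf1, Rint1 and Tmed3 belong to the lists above.

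In these bulk samples, fewer melanotropes and less RNA per melanotrope cannot be told apart. The summed CPM of the 5 melanotrope markers, most of it Pomc, was between 102300 and 166500 in the WT and AXBP1 libraries, 123200 and 110300 in ACreb3l2, and 89890 and 66130 in ACreb3l2/AXBP1, and 0 of 5 were higher in ACreb3l2/AXBP1 than in AXBP1. For the 6 pituicyte and astrocyte markers the sum was between 1049 and 1800 CPM in WT and AXBP1, 1664 and 1644 in ACreb3l2, and 1593 and 2077 in ACreb3l2/AXBP1, with 6 of 6 higher and 0 called against AXBP1. Of the remaining lists, 5 of 6 endothelial, 5 of 6 anterior lobe, 3 of 8 fibroblast and pericyte and 1 of 6 macrophage markers were higher against AXBP1, with 0 called. Against WT, where 8 coat genes were called, 0 of 5 melanotrope markers were higher in ACreb3l2/AXBP1 and Tbx19 was called lower (log2 change -0.88, edgeR adjusted p = 0.0245, SE 0.185), while 6 of 6 pituicyte and astrocyte, 6 of 6 endothelial and 7 of 8 fibroblast and pericyte markers but 3 of 6 macrophage and 2 of 6 anterior lobe markers were higher, with Aqp4 called (log2 change 0.51, edgeR adjusted p = 0.0464, SE 0.140). The 6 anterior lobe markers summed to 2359 and 2409 CPM in AXBP1 and to between 3074 and 6999 in the other groups. No marker was at 0. Within ACreb3l2/AXBP1, replicate 1 had the higher melanotrope sum and the higher value for all 9 coat genes, and within WT, replicate 2 had the higher sum and the higher value for 7 of 9. Within AXBP1, replicate 2 had the higher sum and 7 of 9 coat genes were higher in replicate 1, and within ACreb3l2, replicate 1 had the higher sum and 5 of 9 coat genes were higher in replicate 2. The part of tissue makeup in the coat gene values was not tested.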

How the data were processed

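The deposited raw counts per Ensembl gene were made by the authors with Trimmomatic, Tophat (mm10) and HTSeq-count according to the study's methods, and are not normalized. A software list of the study names another aligner, and the annotation release and strand setting are not given in the sources used here. The labels give ribosomal depletion and the methods text a stranded mRNA kit. FPKM per locus is the authors' own estimate as deposited, and loci of 1 gene were summed (51 genes). Counts were fitted in edgeR 4.0.16 (R 4.3.3) with TMM, genes with a mean size-factor-scaled count above 20 (99.9% of counts), 1 mean per group over all 8 libraries, the robust quasi-likelihood test and Benjamini-Hochberg adjustment over all tested genes. Alternatives used DESeq2 1.42.0, limma 3.58.1 on log2(FPKM + 0.1), other scalings, filters and samples. All tools were tested on simulated data. The 2 libraries of a group were not copies of one library, since their counts differed by 10.7 to 48.5 times the sampling noise (chi-squared over its degrees of freedom), which does not show that they are separate animals. Named are all coat genes, Creb3l2, Xbp1 and Pomc, up to 5 called genes of each list by p, the 10 genes nearest to the coat profile, and overlapping genes. Arf1, Arfgap2, Tmed3, Tmed5, Mest, Tbx19 and Aqp4 were named after their values were seen. The members and lists were chosen with earlier results of these data known.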

Additional observations from a re-analysis of the deposited data

How the results depend on the processing

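Every coat gene except Copg2 kept its direction under all alternatives in the comparisons of ACreb3l2/AXBP1 and AXBP1 with WT, and of both ACreb3l2 groups with AXBP1. In ACreb3l2/AXBP1 against AXBP1, 3 coat genes were called, beside 97 of 15580 genes in all. With DESeq2 7 were called, beside 287 of 15580 genes, and without the filter on low counts 7, beside 755 of 29547. On FPKM 1 was called with pseudocount 0.1, beside 28 of 18895 genes, and 0 with no filter, beside 12 of 27520. Leaving out 1 library gave 0 to 4 coat genes there, 4 to 8 in ACreb3l2/AXBP1 against WT and 1 to 3 in ACreb3l2 against AXBP1. ACreb3l2 against AXBP1 and ACreb3l2/AXBP1 against WT reuse libraries by which the genes were chosen, so their coat gene counts follow in part from the choice. In ACreb3l2 against AXBP1, 2 coat genes were called by edgeR, beside 0.719% of all genes. DESeq2 called 6 coat genes, beside 260 of 15580 genes in all. Without the filter 7 were called, beside 730 of 29547 genes, and on FPKM (pseudocount 0.1) 1, beside 24 of 18895. The causes were not tested.

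In ACreb3l2 against WT the 473 calls became 755 with DESeq2, 304 with library size alone, 1455 without the filter, 199, 195 and 139 on FPKM (pseudocount 0.1, pseudocount 1, no filter) and 275 with only the groups compared, and were 153 to 618 with 1 library left out. In the same order of settings, the 97 calls of ACreb3l2/AXBP1 against AXBP1 became 287, 55, 755, 28, 26 and 12, and were 7 to 155 with 1 library left out. The 112 of ACreb3l2 against AXBP1 became 260 with DESeq2, 730 without the filter and 24, 20 and 19 on FPKM (18 to 152 with 1 library left out). The 1566 of ACreb3l2/AXBP1 against WT became 3209 without the filter, 790, 732 and 402 on FPKM and 654 with only the groups compared (218 to 2084 with 1 library left out). From 0 calls, AXBP1 against WT went to 79 with DESeq2, 628 without the filter, 14, 12 and 11 on FPKM and 2 with only the groups compared (0 to 9). ACreb3l2/AXBP1 against ACreb3l2 went to 41, 513, 1 with filterByExpr, and 4, 4 and 7 on FPKM (0 to 11), and the interaction to 4, 126, and 3, 7 and 3 on FPKM (0 to 2). Library size alone moved the median log2 change of all genes to 0.17 in ACreb3l2/AXBP1 against WT.

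Same-numbered replicates did not deviate together (correlations across genes of -0.20 to 0.09), which gave no sign that the numbers pair the samples. The study states no pairing, and a single replicate difference per group cannot exclude it. With a replicate block, 1 coat gene and 58 genes in all were called in ACreb3l2/AXBP1 against AXBP1, 1 coat gene in ACreb3l2 against AXBP1, and 3 genes in AXBP1 against WT. With the replicate numbers of ACreb3l2/AXBP1 crossed, a block chosen after seeing the data, 8 coat genes and 2059 genes were called against WT.

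Directions turned only for small differences that were not called. In ACreb3l2/AXBP1 against ACreb3l2, library size alone gave 0.0589 for Copb2 and 0.0578 for Copz1, and no filter gave -0.0012 for Arcn1. Left-out libraries gave -0.0160 to 0.26 for Copb1, -0.0919 to 0.0987 for Arcn1, -0.17 to 0.11 for Copb2, -0.25 to 0.0126 for Copa, -0.24 to 0.0142 for Copg1, -0.39 to 0.0281 for Cope and -0.12 to 0.0618 for Copz1. Copg2 on FPKM stood at -0.16, -0.15 and -0.16 in AXBP1 against WT and at 0.20, 0.20 and 0.20 in ACreb3l2 against AXBP1. The interaction ran, with 1 library left out, from -0.13 to 0.14 for Copa, -0.19 to 0.24 for Cope, -0.0333 to 0.23 for Copg1 and -0.0283 to 0.11 for Copg2.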
